A study of Sus scrofa with 6 samples.

Results

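The classical cadherins and their catenin partners, 10 adhesion genes, were followed from porcine embryonic fibroblasts (PEFs) to the induced pluripotent stem cells (piPSCs) made from them. These were 7 cadherins (CDH1, CDH2, CDH3, CDH5, CDH6, CDH11 and CDH13) and 3 catenins (CTNNA1, CTNND1 and JUP), taken by name from a table of 18007 genes. Of these, 9 were listed by name, and CDH6 was listed only by its identifier (ENSSSCG00000032931), which a table of gene names paired with the symbol. In short, the main cadherin transcripts of the fibroblasts were CDH11 and CDH13, the main one of the piPSCs was CDH2, and CDH1 had at most 11 fragments in any of the 6 libraries.

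The PEF lines PEF5, PEF7 and PEF8 were grown from tissue of the ear tip, taken at embryonic day 90 from littermates with a Large White boar (spelled Longwhite in the labels) and a Meishan sow as parents, and they carried no introduced factors. The lines piPSC5, piPSC7 and piPSC8 each derive from the equally numbered PEF line, by way of 2 lentiviral vectors, TetO-FUW-OSKM for dox-inducible Oct4, Sox2, Klf4 and cMyc and FUW-M2rtTA for the activator. Their colonies were picked after culture in LF2i medium and grown on feeder cells of mouse embryos. Each line gave 1 poly-A RNA library, so a group is 3 lines that share parents, and every p-value measures only the spread between these lines.

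Cadherins hold neighbouring cells together through calcium-dependent contacts between like molecules, and their tails are tied to actin by catenins. Beta-catenin (CTNNB1) or plakoglobin (JUP) binds the tail and recruits alpha-catenin (CTNNA1), while p120-catenin (CTNND1) binds nearer the membrane and keeps cadherins at the surface. Epithelial cells and cells of the early embryo are known for E-cadherin (CDH1), and mesenchymal cells for N-cadherin (CDH2) and cadherin-11. The exchange of one for the other is a textbook feature of transitions between epithelial and mesenchymal states, in either direction.

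Libraries held between 11010629 and 17836510 fragments, and every FPKM value (fragments per kilobase of gene, scaled to the depth of the library) in the table was a whole number of fragments. DDX3Y, a Y-linked gene, had 3439 fragments in PEF8 and 4207 in piPSC8 and 0 in the libraries of lines 5 and 7, although all 3 lines are described as male. Values are therefore given line by line. Groups were compared with limma on log2(FPKM + 1) over 12428 genes whose FPKM averaged 0.5 or more. A gene was called if its Benjamini-Hochberg adjusted p was below 0.05 and it differed 2-fold or more on that scale. Over the tested genes the median log2 fold change was 0.20, and it was -0.01 after rescaling to the median ratio, -0.06 after rescaling to equal sums and -0.02 with voom. Among called genes, 54.8% were higher in piPSCs, against 42.8%, 41.4% and 44.3% under these 3 settings.

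The filter on low values was passed by 7 members, CDH6 only through its piPSC values, and not by CDH1, CDH3 and CDH5. CDH2 was called higher in piPSCs, where 20.2% of all tested genes were, and CDH13 and JUP were called lower, where 16.7% were. In all, 3 of 7 tested members were called, against 36.8% of all tested genes. The PEF and piPSC values did not overlap for 5 of the 7, against 64.1% of all tested genes. The median log2 fold change of the 7 was -0.50, against 0.20 over all tested genes. The direction of CTNND1, whose change was close to 0, flipped when some libraries were left out, and no other tested member changed direction under any of the alternatives run.

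**Figure D1:**
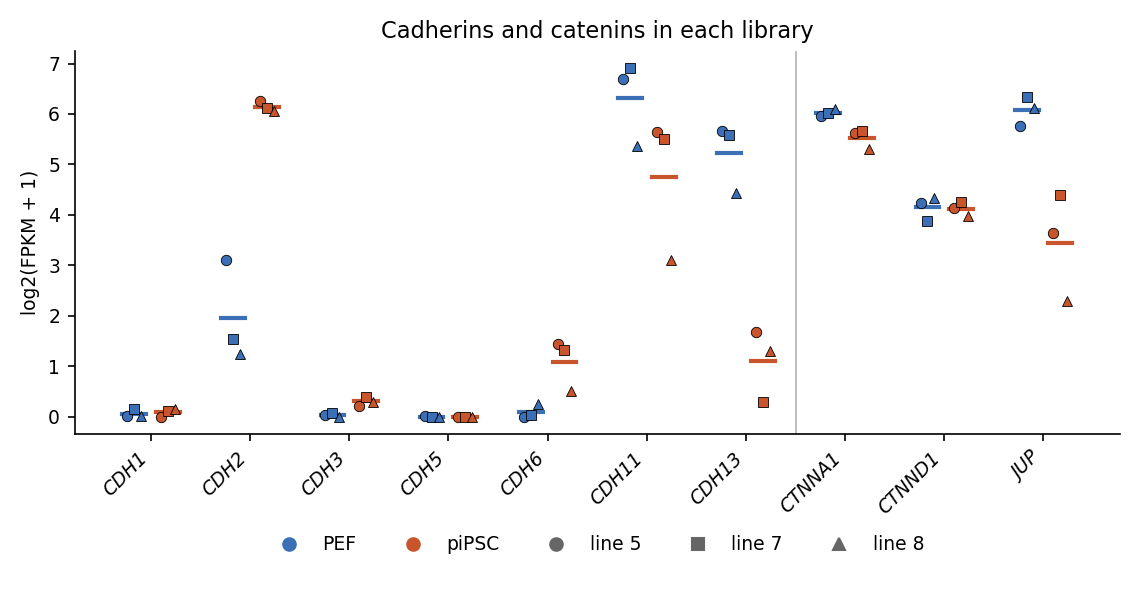
Levels of the 10 members as log2(FPKM + 1), cadherins left and catenins right of the grey line, with 1 point per library, marker shapes for lines 5, 7 and 8, and a bar at the mean of the 3 lines. CDH2 lies above 6 in the 3 piPSC libraries and at 3.1 or lower in the PEF libraries, CDH13 and JUP show the opposite order, and CDH1, CDH3 and CDH5 lie near 0 throughout.

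Among the type I cadherins, CDH2 (ENSSSCG00000003722, chr6:112396329-112628946 of Sscrofa11.1, minus strand), the cadherin of mesenchymal and neural cells, was by far the most abundant. It stood at 7.58, 1.89 and 1.37 FPKM in PEF5, PEF7 and PEF8, and at 75.5, 68.5 and 65.8 FPKM in piPSC5, piPSC7 and piPSC8. All 3 piPSC libraries were thus high and close to each other, all 3 PEF libraries were low, and PEF5 was the highest of these. Means were 3.61 ± 3.44 FPKM for PEFs and 69.9 ± 5.02 FPKM for piPSCs (SD, n = 3 lines each), a 19.4-fold difference. The log2 fold change was 4.19 (SE 0.47, 95% interval 3.06 to 5.31), with a limma adjusted p of 0.000900. It was higher in 3 of 3 lines, by 3.16, 4.59 and 4.82 on the log2 scale for lines 5, 7 and 8, and was called in all 15 alternatives, with log2 fold changes from 3.83 to 4.76. The measured fold thus rests on 960 fragments over the PEF libraries and 13701 over the piPSC libraries.

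CDH1 (ENSSSCG00000025652, chr6:18039318-18155990, minus strand), the epithelial cadherin, had 1, 11 and 1 fragments in PEF5, PEF7 and PEF8 and 0, 6 and 7 fragments in piPSC5, piPSC7 and piPSC8. No library exceeded 0.117 FPKM, the groups overlapped, and both groups summed to 13 fragments. The 0 in piPSC5 allows up to 3 fragments, or 0.0353 FPKM. The ratio of the pooled values, piPSC over PEF, was 1.31 with an exact 95% interval of 0.559 to 3.07, which, like all such limits here, covers the counting error only. CDH1 was too low for the main test, and in the fit without a filter its log2 fold change was 0.03 with an adjusted p of 0.750. A difference in CDH1 was not detectable at this depth. The first 12060 bp of its listed span overlap TANGO6, and how fragments shared by genes were counted is not given in the sources used here. EPCAM, another surface molecule of epithelial cells, was low too, at 0.0356 to 0.0734 FPKM in PEFs and 0 to 0.0144 in piPSCs.

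CDH3 (P-cadherin, of basal epithelial cells) lies beside CDH1, with a gap of 35.7 kb and no listed gene between them. It had 1, 2 and 0 fragments in the PEF libraries and 6, 9 and 6 in the piPSC libraries. The groups did not overlap, but the highest library reached only 0.315 FPKM. Pooled, piPSCs were 9.17 times as high, with an exact 95% interval of 2.74 to 48.0, and the fit without a filter gave a log2 fold change of 0.27 with an adjusted p of 0.0183. On the scale of FPKM per library, CDH1 and CDH3 together were less than 1% of the cadherin sum in every library.

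The stretches upstream of the gene starts of CDH1 and CDH2 are shown because this pair differed so widely in level while both are genes of chromosome 6, and because the letters CAGGTG, which read CACCTG along the other strand, are the E-box that the Snail and ZEB repressors are known to bind in CDH1. Both were read from Sscrofa11.1 with RefSeq gene starts, run 5′ to 3′ along the minus strand over 250 bases, chr6:18155987-18156236 for CDH1 and chr6:112629074-112629323 for CDH2, and carry E-boxes in capitals.
CDH1: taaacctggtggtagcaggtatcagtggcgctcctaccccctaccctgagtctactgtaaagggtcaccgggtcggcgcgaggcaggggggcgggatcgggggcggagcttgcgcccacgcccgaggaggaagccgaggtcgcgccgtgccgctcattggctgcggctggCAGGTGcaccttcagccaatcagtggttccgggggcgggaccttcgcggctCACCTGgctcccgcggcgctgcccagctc
CDH2: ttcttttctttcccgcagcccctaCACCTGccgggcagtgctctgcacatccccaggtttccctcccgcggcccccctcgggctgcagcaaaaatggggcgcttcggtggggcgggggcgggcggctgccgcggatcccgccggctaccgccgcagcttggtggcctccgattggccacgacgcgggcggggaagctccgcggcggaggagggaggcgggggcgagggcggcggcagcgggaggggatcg
Windows of 250 bases before and 50 after the start were searched for all 10 members, which all have a RefSeq start. The RefSeq starts of CDH13 (5832188) and CDH6 (17531862) lie outside their listed spans, which begin at 5684863 and 17629408. The windows of CDH13 and CDH6 thus do not adjoin the rows whose FPKM is given. The RefSeq starts of CDH3 (18236184) and CTNNA1 (140682776) lie inside their listed spans, which begin at 18238129 and 140682371. The windows of CDH3 and CTNNA1 thus lie within the listed genes. The CDH1 window held 3 E-boxes, with first bases at -80, -29 and 23 from the gene start, and 0.658% of 20667 protein-coding windows held 3 or more. CDH2 held 1 at -226 and CTNNA1 held 1 at -248, where 22.3% of all windows held at least 1. The AP-1 letters TGANTCA, in 6.35% of all windows, were in no member's window, and the TEAD letters GGAATG, in 2484 of the 20667 windows, were only in that of CDH11, at 13. These matches are letters in a window, and binding was not measured here.

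The type II cadherins were led by CDH11 (ENSSSCG00000002795, chr6:25782756-25933632, minus strand), the cadherin of mesenchyme and bone-forming cells. It stood at 102.6, 119 and 40.2 FPKM in PEF5, PEF7 and PEF8 and at 49.0, 44.1 and 7.62 FPKM in piPSC5, piPSC7 and piPSC8. The PEF8 value lay below those of piPSC5 and piPSC7, so the groups overlapped, yet each piPSC library lay below its own PEF library, with log2 ratios of -1.05, -1.41 and -2.26 for lines 5, 7 and 8. The log2 fold change was -1.57 (SE 0.75, 95% interval -3.37 to 0.22), with a limma adjusted p of 0.120, so CDH11 was not called. With the line as a replicate block the same change had an SE of 0.27 and an adjusted p of 0.0123 and was called. Without piPSC8 it was -0.75, with an adjusted p of 0.236. CDH11 thus remained the cadherin next to CDH2 in abundance in all 3 piPSC libraries.

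CDH6, a cadherin of kidney and neural crest, had 0, 2 and 12 fragments in the PEF libraries and 111, 76 and 20 in the piPSC libraries. These are 0, 0.0280 and 0.185 FPKM against 1.73, 1.50 and 0.425 FPKM, so the groups did not overlap and line 8 held the nearest pair. Its log2 fold change of 1.00 (SE 0.31) had an adjusted p of 0.0351 but lay just under the 2-fold limit, with a fitted value of 0.997. It passed that limit in 5 alternatives, with 1.29 (adjusted p 0.00693) without piPSC8, 2.90 with a pseudocount of 0.1 and 4.72 with voom, while its adjusted p was 0.0759 with the replicate block and 0.0508 to 0.105 when any library but piPSC8 was left out. CDH5, the cadherin of endothelial cells, had 1 fragment in PEF5 and 0 in the other 5 libraries, where a count of 0 allows at most 0.0538 FPKM.

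CDH13 (ENSSSCG00000002684, chr6:4806014-5684863, minus strand) is anchored to the membrane by a lipid and has no tail for catenins. It stood at 49.8, 46.9 and 20.7 FPKM in PEF5, PEF7 and PEF8 and at 2.22, 0.226 and 1.48 FPKM in piPSC5, piPSC7 and piPSC8. Every piPSC library was far below every PEF library, and piPSC7 was the lowest with 16 fragments. CDH13 fell by 4.13 on the log2 scale (SE 0.47, adjusted p 0.000933), from 39.1 ± 16.0 to 1.31 ± 1.01 FPKM (SD, n = 3 lines each), and was called lower in all 15 alternatives. The log2 ratios within lines 5, 7 and 8 were -3.98, -5.29 and -3.13.

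**Figure D2:**
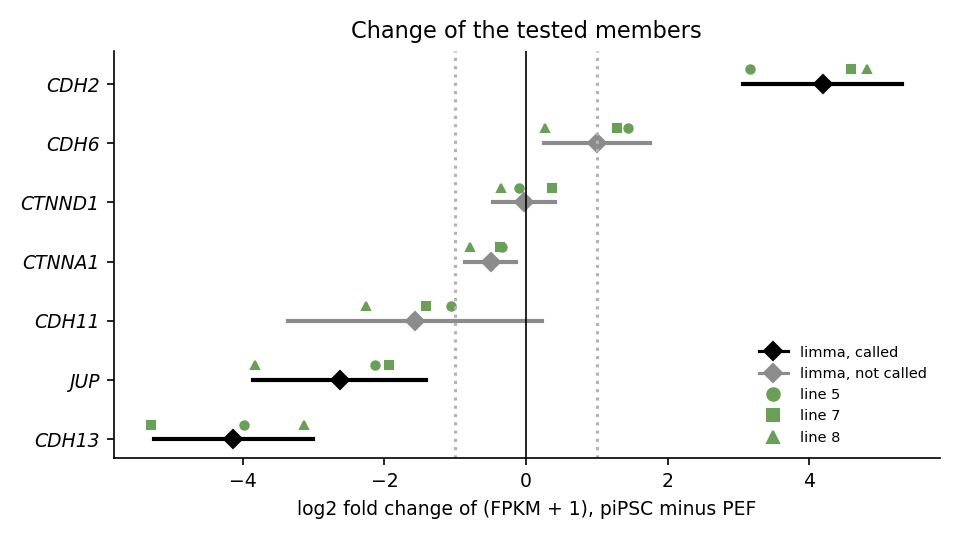
Log2 fold change of (FPKM + 1), piPSC minus PEF, of the 7 tested members, with diamonds and bars for the limma estimate and its 95% interval, black where called, green markers for the ratio within each line, and dotted lines at 2-fold. The intervals of CDH2, JUP and CDH13 lie wholly beyond 2-fold, that of CDH11 crosses 0, and all 3 lines share a direction for every member but CTNND1.

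FPKM is per length, so cadherins can be set side by side within a library. Their summed level was 160.1, 168.0 and 62.5 FPKM in PEF5, PEF7 and PEF8 and 128.6, 114.7 and 75.7 FPKM in the piPSC libraries of lines 5, 7 and 8. These ranges overlapped, and the difference of the means, -23.8 FPKM, had an exact two-sided permutation p of 0.6, where 0.1 is the smallest that 3 against 3 allows. The shares of CDH2, CDH11 and CDH13 in this sum differed without overlap, and that of CDH1 overlapped. CDH2 made up 4.73%, 1.13% and 2.19% of it in PEF5, PEF7 and PEF8, and 58.7%, 59.7% and 87.0% in piPSC5, piPSC7 and piPSC8 (exact p = 0.1). CDH11 went from a mean of 66.4% ± 3.84 to 28.9% ± 16.3, and CDH13 from 30.7% ± 2.67 to 1.29% ± 0.955 (SD, n = 3 lines each, exact permutation p = 0.1 for both). CDH1 made up 0.0314% ± 0.0335 and 0.0756% ± 0.0744 (SD, n = 3 lines each, exact p = 0.5).

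The log2 ratio of CDH1 to CDH2 within a library, each with 1 FPKM added, differed by -4.16 between the group means (exact permutation p = 0.1), and by -4.43 with 0.1 added. Since CDH1 had 0 to 11 fragments, this ratio follows the added value and the CDH2 level and holds no more than the CDH2 change itself. The log2 ratio of CDH2 to CDH11, with 1 FPKM added to each, went from a mean of -4.36 ± 0.91 to 1.40 ± 1.35 (SD, n = 3 lines each, exact permutation p = 0.1), and CDH2 exceeded CDH11 in 3 of 3 piPSC libraries and in 0 of 3 PEF libraries.

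**Figure D3:**
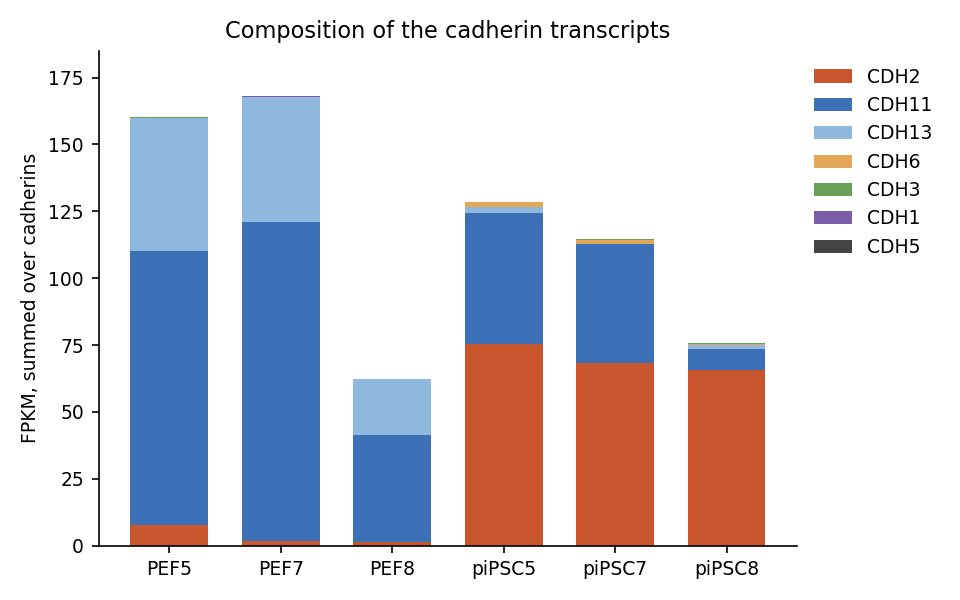
FPKM summed over the 7 cadherins in each library, with 1 bar per library from 0 and 1 colour per cadherin. CDH11 and CDH13 fill most of the PEF bars, CDH2 fills 58.7% to 87.0% of the piPSC bars, and CDH1, CDH3, CDH5 and CDH6 are barely visible in any.

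Of the catenins, JUP (ENSSSCG00000017428, chr12:20902395-20931205, plus strand), which serves in both adherens junctions and desmosomes, was the one called. It stood at 53.5, 79.6 and 68.4 FPKM in PEF5, PEF7 and PEF8 and at 11.4, 20.1 and 3.90 FPKM in piPSC5, piPSC7 and piPSC8. The groups were far apart, with piPSC8 the lowest. JUP fell by 2.63 on the log2 scale (SE 0.51, 95% interval -3.85 to -1.41, adjusted p 0.00623) and was called lower in all 15 alternatives.

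CTNND1 showed no detectable change, at 17.9, 13.7 and 19.1 FPKM in the PEF libraries and 16.5, 18.0 and 14.7 FPKM in the piPSC libraries of lines 5, 7 and 8. Its groups overlapped and its log2 fold change was -0.03, with a 95% interval from -0.46 to 0.40 and an adjusted p of 0.904. CTNNA1, the link to actin, was at 61.4, 64.1 and 67.3 FPKM in PEFs and at 48.3, 49.6 and 38.6 FPKM in piPSCs. It was lower in every piPSC library by a small amount, -0.50 on the log2 scale (SE 0.15, adjusted p 0.0316), under the 2-fold limit, and its adjusted p was 0.0649 with the replicate block and 0.0594 to 0.0817 when any library but piPSC7 was left out. Rescaling to the median ratio gave -0.76 (adjusted p 0.00627) and equal sums gave -0.82 (adjusted p 0.00624). It overlaps LRRTM2 over 5875 bp.

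JUP and CTNNB1 take the same place on the cadherin tail. CTNNB1, which also carries Wnt signals, was at 76.8, 72.3 and 62.5 FPKM in PEFs and at 62.0, 61.3 and 40.8 FPKM in piPSCs, with a log2 fold change of -0.38 and an adjusted p of 0.159. Rescaling to the median ratio gave -0.65 (limma adjusted p 0.0302), equal sums gave -0.71 (0.0338) and voom gave -0.65 (0.0382). CTNNB1 thus stayed under the 2-fold limit, and the evidence for a small fall depended on the scaling. JUP made up 41.1%, 52.4% and 52.3% of the sum of both in PEF5, PEF7 and PEF8, and 15.5%, 24.7% and 8.72% in piPSC5, piPSC7 and piPSC8. The shares did not overlap (exact permutation p = 0.1, the smallest possible).

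Within the PEF libraries the members ran, by mean FPKM, from CDH11 (87.3) through JUP (67.2), CTNNA1 (64.3), CDH13 (39.1) and CTNND1 (16.9) to CDH2 (3.61), with the rest under 0.1. CDH11 overlapped JUP, CTNNA1 and CDH13 in range, and JUP overlapped CTNNA1, so the order among CDH11, JUP and CTNNA1 is not beyond the spread of the lines. JUP and CTNNA1 lay above CDH13 in range, and CDH11 was above CDH13 within each of the 3 PEF libraries. In piPSCs the order was CDH2 (69.9), CTNNA1 (45.5), CDH11 (33.6), CTNND1 (16.4), JUP (11.8), CDH13 (1.31) and CDH6 (1.22), with CDH3 at 0.236 and CDH1 at 0.0673. CDH2 lay above all others in each piPSC library, whereas CDH11 overlapped CTNNA1, CTNND1 and JUP. JUP also overlapped CTNND1, and CDH13 overlapped CDH6 and CDH3.

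The rest of the junction was read from 6 lists of 94 genes, of which 52 were tested, 5 called higher and 18 called lower. Over all tested genes, 20.2% were called higher and 16.7% lower, the shares to set beside this and every list count below. Of 19 tested catenins and partners of the cadherin tail, 2 were called higher and 3 lower, with a median log2 fold change of -0.17. ARVCF and PKP4, relatives of p120-catenin, rose from 2.75 ± 0.416 to 7.07 ± 2.29 FPKM (adjusted p 0.0123) and from 8.39 ± 2.52 to 17.9 ± 2.63 FPKM (adjusted p 0.0113, SD, n = 3 lines each, limma). Both lay close to 2-fold and were under it in some alternatives, ARVCF at 0.85 on the log2 scale without piPSC5 and 0.98 without PEF8, and PKP4 at 0.92 to 0.97 without PEF7, PEF8, piPSC5 or piPSC7. With both rescalings each lay between 0.77 and 0.92. FURIN, the protease that matures cadherins by cutting off their leading stretch, fell by 2.32 on the log2 scale (adjusted p 0.000362). ACTN1, which bundles actin, fell by 1.73 (adjusted p 0.00440), and IQGAP1, a scaffold at junctions, fell by 1.15 (adjusted p 0.0104), though IQGAP1 was at -0.95 without PEF5 and just under 2-fold without piPSC5.

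Of 4 other cadherins tested, CDH10 rose and CDH24 fell. CDH10, a type II cadherin known from the brain, had 0 fragments in all PEF libraries and 371, 428 and 20 in piPSC5, piPSC7 and piPSC8, which is at least 357-fold higher when 3 fragments are allowed over the PEF group. CDH10 passed the filter on low values only through its piPSC values. Its limma adjusted p of 0.0323 became 0.0579 in the fit without that filter, where it was not called. It became 0.0787 to 0.102 when any library but piPSC8 was left out. CDH24 fell by 1.21 on the log2 scale (adjusted p 0.00597). CDH8 and CDH7, picked after their values were seen, were each high in a single piPSC library, CDH8 at 17.4 FPKM in piPSC7 against at most 0.531 elsewhere and CDH7 at 6.58 FPKM in piPSC8 against at most 0.148 elsewhere. Neither was called.

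All 4 tested nectins were called lower. Nectins are calcium-independent adhesion molecules that sit beside cadherins. NECTIN3 went from 24.7 ± 8.62 to 7.59 ± 0.795 FPKM (SD, n = 3 lines each, limma adjusted p 0.00424). NECTIN2 was at 11.4, 12.4 and 15.5 FPKM in the PEF libraries and at 2.86, 5.54 and 1.71 FPKM in the piPSC libraries (adjusted p 0.00581). PVR fell by 2.47 and NECTIN1 fell by 1.14 on the log2 scale. Of 5 tested desmosome genes, PKP2 (plakophilin-2) fell by 2.01 on the log2 scale (adjusted p 0.0167, and 0.0524 without PEF5 and 0.0591 without piPSC5), and the other 4 were not called.

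Of 12 tested epithelial junction and cytoskeleton genes, 2 were called higher and 5 lower. F11R, the tight junction molecule JAM-A, was at 48.9, 23.2 and 48.8 FPKM in PEF5, PEF7 and PEF8 and at 0.701, 1.43 and 0 FPKM in the piPSC libraries of lines 5, 7 and 8. It fell by 4.61 on the log2 scale (adjusted p 0.000490), and CLDN1 (claudin-1) fell by 4.04 (adjusted p 0.00179). CLDN6, KRT7 and SPINT2 were called lower too, but the calls of CLDN6 (without PEF5, PEF8 or piPSC5, adjusted p 0.0539 to 0.0675, and 0.0542 with the replicate block) and SPINT2 (without piPSC5 or piPSC8, 0.0557 and 0.0590) depended on single libraries. RAB25, which directs traffic to the surface of epithelial cells, rose from 0.155 ± 0.0745 to 2.07 ± 0.451 FPKM, and CGN (cingulin) from 0.117 ± 0.140 to 1.66 ± 0.411 FPKM (SD, n = 3 lines each, limma adjusted p 0.00317 and 0.00621). These are low levels, and both genes passed the filter on low values only through their piPSC values. The list holds genes of both directions.

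**Figure D4:**
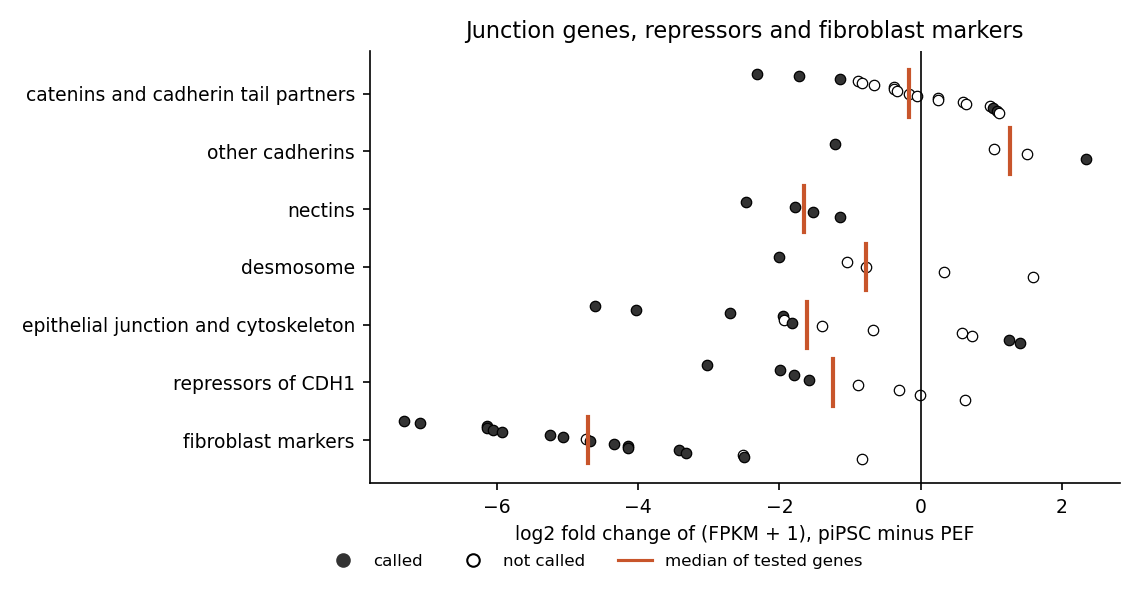
Log2 fold change of (FPKM + 1), piPSC minus PEF, of each tested gene in 7 lists, filled where called, with an orange bar at the median of the list. All 4 nectins and 15 of 18 fibroblast markers are called lower, while the catenin and partner list centres near 0 and its called genes lie on both sides.

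Of 8 tested repressors of CDH1, 4 were called lower and none higher. TWIST2 fell by 3.02 (adjusted p 0.00374), SNAI1 fell by 2.00 (adjusted p 0.00200), TWIST1 fell by 1.79 (adjusted p 0.0202) and SNAI2 fell by 1.59 (adjusted p 0.0240) on the log2 scale. TWIST1 was still at 29.6, 15.5 and 56.5 FPKM in piPSC5, piPSC7 and piPSC8. Its call was lost without PEF5, PEF7 or piPSC5 (adjusted p 0.0597 to 0.0671) and with the replicate block (0.0519), and that of SNAI2 without PEF7 or any 1 piPSC library (0.0533 to 0.0597). ZEB1 was at 17.2, 7.61 and 14.2 FPKM in PEFs and 12.6, 8.93 and 8.47 FPKM in piPSCs, so its groups overlapped (log2 fold change -0.30, adjusted p 0.448). ZEB2 was lower in piPSCs by less than 2-fold (-0.88, adjusted p 0.0357). It passed that limit without PEF7 (-1.12) or piPSC8 (-1.04), with both rescalings, with voom and with a pseudocount of 0.1.

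Markers of fibroblasts were mostly lower in piPSCs, the direction of CDH13, while CDH2 was higher there and CDH11 was not called. Of 18 fibroblast markers 15 were called lower, and their summed level ran from 7573 to 10595 FPKM in PEF libraries and from 354.9 to 552.9 FPKM in piPSC libraries. COL1A2 was at 44.8, 8.39 and 4.24 FPKM in piPSC5, piPSC7 and piPSC8, and 17, 10 and 11 of the 18 markers were above 1 FPKM there, with DPT at 0 in piPSC7. The CDH11 that remained in piPSCs, highest in piPSC5 and lowest in piPSC8, lay in the same order over these libraries as 9 of the 18 markers, COL1A2 among them, while the other 9 ran in another order, such as COL3A1 at 94.2, 109 and 125 FPKM. The part of unconverted fibroblasts, or of feeder cells, in it was not tested. In such bulk libraries fewer cells of a type and less RNA per cell cannot be told apart.

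Markers of other cell types were uneven, and several were well above 1 FPKM in PEFs. For endothelial cells, KDR had at most 0.0110 FPKM in any library and PECAM1 averaged 1.21 ± 1.17 FPKM over the PEF and 0.128 ± 0.0920 FPKM over the piPSC libraries (SD, n = 3 lines each), while FLT1 was at 8.09 FPKM in PEF7 and 27.0 FPKM in PEF8, lower in PEF5, and at most 0.205 FPKM in piPSCs. FLT1 was the 1 of 3 tested markers called lower, and ERG, at 7.98, 8.62 and 0.164 FPKM in the PEF libraries and at most 0.254 in the others, was not called. For pericytes and smooth muscle, 3 of 5 tested markers were called lower (CNN1, ACTA2 and CSPG4) and RGS5 was at or below 0.0593 FPKM. ACTA2 was at 26.4, 43.1 and 92.8 FPKM in PEF5, PEF7 and PEF8, CNN1 reached 75.1 and CSPG4 24.1 there, against at most 6.14, 0.943 and 1.07 FPKM in piPSCs. For melanocytes 1 of 2 was called lower (MLANA, at 7.84 to 25.6 FPKM in PEFs and 0 in piPSCs), for muscle and cartilage 1 of 3 (SOX9, a call lost without any 1 library but PEF8), and for keratinocytes 0 of 2 tested were called either way. Of the muscle and cartilage markers not called, COMP was lower (-1.47 on the log2 scale) and DES was higher (1.73, limma adjusted p 0.133). DES was at 0.165, 14.2 and 2.51 FPKM in piPSC5, piPSC7 and piPSC8, against at most 0.416 FPKM in PEFs. MITF, a melanocyte marker, was higher without being called (0.54). Of 4 tested pluripotency markers, KLF4 was called lower (adjusted p 0.0177, but 0.0606 without PEF7 and 0.0576 without PEF8) and none was called higher. SOX2 and LIN28B were higher in piPSCs without being called, by 1.31 and 1.80 on the log2 scale (limma adjusted p 0.0626 and 0.0667). TFCP2L1 was lower without being called (-0.93, adjusted p 0.0904). KLF4 and SOX2 are also among the introduced factors. POU5F1 was not analysed here. NANOG, SALL4, ESRRB, ZFP42 and UTF1 were too low to be tested, with at most 6 fragments in any library (SALL4 in piPSC5). The study describes its piPSC lines as dox-dependent, with features of incomplete reprogramming. Of 7 tested trophoblast markers 5 were called lower (3 with the replicate block, where TFAP2A and TFAP2C were lost) and TEAD4 higher, where PAG1 may name an adaptor protein of the same symbol. Of 3 tested primitive endoderm markers, PDGFRA and LAMB1 were called lower. Of 5 tested neural progenitor markers, FABP7 was called higher at 2.07, 0.231 and 2.45 FPKM in the piPSC libraries against 0 in PEFs, a call that was lost without any 1 library but piPSC7 and with the replicate block (adjusted p 0.0617). FABP7 passed the filter on low values only through its piPSC values. ZIC1 and MSI1 were higher (1.24 and 1.59 on the log2 scale) and NES and PAX6 lower (-1.31 and -0.35), none of them called. NCAM1, which was not tested, averaged 0.754 FPKM in PEFs and 0.0239 FPKM in piPSCs. The part of these cells in the cadherin levels was not tested.

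The genes most like CDH2 across the 6 libraries were KNOP1, NCAPH2 and HPRT1, with Pearson r of log2(FPKM + 1) of 0.999 each. These r describe 6 libraries in 2 groups, and any gene that separates the groups with little spread has a high r. HPRT1, a purine salvage enzyme, went from 8.74 to 20.9 FPKM in PEFs to 89.3 to 96.5 FPKM in piPSCs. Like CDH2, all 3 genes were highest in PEF5 among the PEF libraries, which choosing them by r over these same libraries favours. No likeness is given for CDH1, which had at most 11 fragments in a library.

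On chromosome 6 lie 6 of the 10 members, in the order CDH13, CDH1, CDH3, CDH11, CDH5 and CDH2. CDH1 and CDH3, the closest pair, were both near 0 in every library. CDH11 and CDH5 are next to each other in the table, 1.17 Mb apart with no listed gene between, yet CDH11 reached 119 FPKM and CDH5 at most 1 fragment. CDH2, the only one called higher, lies 85.3 Mb beyond CDH5.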

How the data were processed

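Per the labels, poly-A RNA of 3 PEF and 3 piPSC lines was sequenced, and the submitters' processing notes name HISAT2 2.1.0, Bowtie2 2.2.3, HTSeq 0.6.0 and Sscrofa11.1 with no roles. The authors deposited 1 table of FPKM values for 18007 genes. Fragments were recovered from the FPKM steps for 100% of genes (tolerance 0.001 of a fragment), giving 11010629 to 17836510 per library, and 0 columns belonged to no sample.

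Log2(FPKM + 1) was compared, for genes averaging 0.5 FPKM or more, with limma 3.58.1 in R 4.3.3 (trend, not robust, two-sided, Benjamini-Hochberg), tested on simulated data. Shares and ratios used exact permutation tests (scipy 1.17.1). A count of 0 was taken to allow 3 fragments.

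piPSC lines derive from the equally numbered PEF line, so numbers pair the libraries. Deviations of same-numbered libraries correlated at 0.0921, 0.0946 and 0.0800, others at -0.121 to 0.0553. The main fit is unpaired, like the general test in the study's statistics section, although the study set each piPSC line against its matched PEF line for RNA-seq. The replicate block is an alternative. The others were pseudocount, filter, scaling, trend, voom, and each library left out.

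The members and the 16 gene lists were chosen with earlier results of these data known. Named are all members, CTNNB1, CDH1 repressors, EPCAM, PECAM1, COL1A2, POU5F1, the genes most like CDH1 and CDH2, and up to 4 called genes per list and direction. Of these the largest are described. Motifs and promoters came from RefSeq on Sscrofa11.1. Protein sequences were not used here.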

Additional observations from a re-analysis of the deposited data

Results flagged for a closer look

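A row outside the 10 members held signal of the same family. The table lists ENSSSCG00000016806 (chr16:17602886-17633508, plus strand) by identifier only, and it overlaps the CDH6 row by 4101 bp on the same strand. It had 0 fragments in PEF5, PEF7 and PEF8 and 19, 13 and 8 in piPSC5, piPSC7 and piPSC8, which is at least 17.5-fold higher when 3 fragments are allowed over the PEF group. It passed the filter on low values only through its piPSC values, and it was called higher there (limma adjusted p 0.00804). Its RefSeq neighbourhood is the CDH6 gene, which spans 17531862 to 17660081. How fragments of the stretch shared with the CDH6 row were counted is not known, so the 2 rows may not be separate signals. It was singled out because it lies in data that the comparison of the members does not use. Groups of 3 libraries are too small for a test of single libraries that stand apart.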

How the results depend on the processing

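Of 875 values recomputed for 60 results, 796 were unchanged. For a gene this means the same direction and side of the threshold. For a count of called genes it means only a count near that of the main fit. The number of members called was 3, and 4 with the replicate block (CDH11), with a pseudocount of 0.1, quantile normalization, rescaling to equal sums, voom, or without piPSC8 (CDH6 in each). The 23 calls in the 6 junction and repressor lists became 15 without piPSC5 and ran from 15 to 23 when each library was left out. CTNND1 turned from -0.028 to 0.017 without PEF5, 0.061 without PEF8 and 0.044 without piPSC8, in a range of -0.16 to 0.061 when each library was left out. Scaling moved CTNND1 further, to -0.28 at the median ratio, -0.34 at equal sums and -0.29 with voom, and it was not called in these. With the replicate block, 21 of the list calls were made. CDH11 became called there, and no other member's call changed. CDH6 and CTNNA1, called in neither fit, had adjusted p of 0.0759 and 0.0649 with the block. With a mean FPKM of at least 1, CDH6 was not tested. The difference in the CDH2 share was 57.5 percentage points over all 21 listed cadherins (chosen after seeing the data) and 65.8 over the 7. With 3 lines a group, exact tests cannot give a p under 0.1, and CDH1, CDH3 and CDH5 are limited by their few fragments. The causes of these shifts were not tested.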
